A study of Bos taurus with 6 samples.

Results

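The cytosolic ribosomal protein genes of cattle muscle were described in 3 animals of the Shandong black breed (B) and 3 of the Luxi breed (L). Members were the genes named RPL or RPS with a number and a short suffix, together with RPLP0, RPLP1, RPLP2 and RPSA. The kinase genes whose names start with RPS6K and RPS19BP1 were left out. The rule found 86 genes of 18010, carrying 85 names, because RPL36A was listed on chromosome X and on chromosome 15. Of these, 83 had a mean of at least 1 FPKM (fragments per kilobase of a transcript, scaled to what was sequenced of the library) in at least 1 breed and were among the 9781 genes tested. RPL10L, RPS27P and the RPL36A of chromosome 15 were not tested, and none of them exceeded 1 FPKM in any animal.

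All 6 animals were 18 months old, and 1 library of longissimus dorsi, the long muscle of the back, was sequenced from each. The Shandong black breed was made by crossing Bohai black, Luxi and Japanese black cattle, while the Luxi breed is a yellow cattle of the region. The study describes its Shandong black cattle as descended from cloned animals. Each breed was obtained from its own supplier, so breed and supplier cannot be told apart. A legend of the study speaks of a Shandong black cattle bull, but the sex of the sampled animals is not given in the sources used here. XIST, the RNA made by the inactive X chromosome of females, was at 10.7, 4.83 and 14.0 FPKM in B1, B2 and B3, and at 0, 0 and 0.207 FPKM in L1, L2 and L3. XIST thus moved with the breed, and the part of sex in the results was not tested.

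Every protein of a cell is made by ribosomes. The small subunit reads the mRNA, and the large subunit joins the amino acids and carries the P stalk, a group of acidic proteins that recruits the elongation factors. Most of these proteins are present once in each ribosome, so their genes are expressed together in nearly all cells. Their mRNAs start with a tract of pyrimidines, the 5′ TOP motif, through which mTORC1 signalling controls their translation. Skeletal muscle has a ribosomal protein of its own, RPL3L, which takes the place of RPL3 in mature fibres. Ribosomal protein genes also have many processed pseudogenes, and reads shared with those copies could have been placed on either, which was not tested.

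The aligned sequence behind a library was 14.1 to 14.6 gigabases in Shandong black cattle and 17.5 to 17.99 gigabases in Luxi cattle. The muscle fibre markers were high in sum in every animal. The sum was 43916 to 55857 FPKM in Shandong black cattle and 24067 to 72212 FPKM in Luxi cattle. ACTA1 alone gave 32188 FPKM of it in B1. MYH1 was at 0.114, 0.125 and 0.903 FPKM in B1, B2 and L1, against 11.6 to 59.7 FPKM in the other animals. Luxi cattle lay above without overlap in 1 of 9 markers (TNNT3, log2 fold change 2.95) and below in 1 (TNNT1, -1.33). These compare with 20.0 and 9.13% of all genes, and 0 of the markers were called, beside 2.57% of all genes. L1 stood apart, with the lowest muscle fibre sum and with 22.3% of its gene FPKM on mitochondrial genes, against 6.41 to 10.1% in the other animals. Among markers of other cells, 4 of the 5 tested fat cell genes were called lower in Luxi cattle, beside 1.02% of all genes. The summed level of the fat cell list was 110 to 174 FPKM in Shandong black cattle and 2.23 to 17.6 FPKM in Luxi cattle. The fibroblast sum was 138 to 180 FPKM in Shandong black cattle and 252 to 349 FPKM in Luxi cattle. Of the 6 fibroblast genes 1 was called higher, beside 1.54% of all genes. Luxi cattle lay above without overlap in 3 of the 6, and FBN1 went the other way (log2 fold change -0.13). The macrophage sum was 9.35 to 13.7 FPKM and 7.39 to 13.3 FPKM, and the satellite cell sum 14.2 to 53.9 FPKM and 3.17 to 31.2 FPKM. In these 2 lists 0 genes were called in limma, and 1 and 0 had an unadjusted p under 0.05, beside 21.8% of all genes. MYOG made up most of the satellite cell sum in Shandong black cattle and had a log2 fold change of -1.99. The other 2 tested satellite cell markers, MYF5 and MYOD1, went the other way, at 0.53 and 0.54. The endothelium sum was 19.5 to 20.8 FPKM in Shandong black cattle and 24.8 to 66.0 FPKM in Luxi cattle, with the 66.0 FPKM in L1. Of the 5 tested endothelium genes 0 were called, and Luxi cattle lay above without overlap in 2. The lymphocyte markers CD3D, CD3E, CD2 and CD79A and the haemoglobin genes HBB, HBA and HBA1 stayed below 1 FPKM in every animal. The part of these cells in the ribosomal protein results was not tested. In whole muscle, fewer cells of a type and less RNA per cell cannot be told apart.

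The ribosomal protein genes were expressed at high and unequal levels. Together they held 3.90, 4.74 and 4.49% of the gene FPKM of B1, B2 and B3, and 5.20, 4.26 and 6.44% of that of L1, L2 and L3. The breeds overlapped in this share, because L2 lay below B2 and B3. The mean share was 0.92 percentage points higher in Luxi cattle, and 0.35 points higher when L3 was left out. With the mitochondrial genes left out of the total, the share was 4.34, 5.14 and 4.95% in B1, B2 and B3, and 6.69, 4.56 and 6.89% in L1, L2 and L3, so L1 then lay beside L3. On that total the difference was 1.24 percentage points, and 0.818 without L3. In summed FPKM the members reached 10154, 11872 and 11895 in B1, B2 and B3, and 10841, 12934 and 20412 in L1, L2 and L3, so L3 stood above the other animals and L1 lay within the range of the Shandong black cattle.

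Among the members with the highest levels, RPLP1 of the P stalk had a mean of 850.5 FPKM over the 6 animals, RPS2 of the small subunit 470.4 FPKM, and RPL13A and RPL37 of the large subunit 396 and 347 FPKM. At the other end of the order, RPL26L1 had a mean of 1.499 FPKM, RPL7L1 5.27 FPKM, RPL22L1 5.49 FPKM and RPS4Y1 8.73 FPKM. These 4 are paralogs, genes related to a ribosomal protein gene at another locus. RPS15A had the lowest level of the tested members that are not paralogs, at 15.0 FPKM, but this value depended on how the level was read from the files, as given further on. Chromosome 18 held 9 members, the most of any chromosome.

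**Figure D1:**
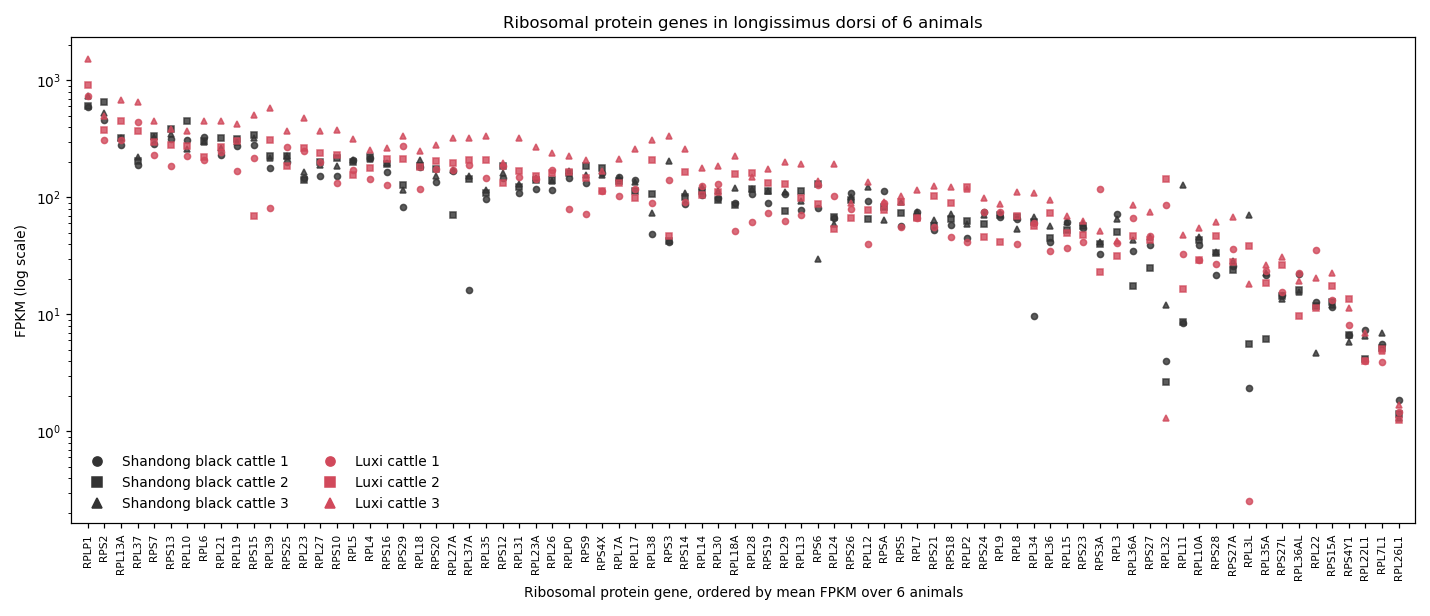
FPKM on a log scale (y axis) of 80 of the 83 tested ribosomal protein genes (x axis, ordered by mean FPKM over 6 animals), with 1 point per animal. Levels run from the RPLP1 mean of 850.5 FPKM to the RPL26L1 mean of 1.499 FPKM, L3 is the highest animal for most genes, and the animals lie far apart for genes such as RPL37A, with B1 alone low, and RPL32 and RPL3L, with several animals low.

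One Luxi animal was highest for most members. L3 had the highest FPKM for 65 of the 83 tested members (78.3%), whereas it was highest for 21.8% of the 9698 other genes tested and for 26.3% of the 716 others with a mean of at least 30 FPKM. By TPM, which scales each library to the same total, L3 was highest for 45 members (54.2%), against 8.497% of the other genes and 12.01% of the others of at least 30 FPKM. L1 had the lowest FPKM for 30 members (36.1%) and B1 for 23 (27.7%), near the 36.9 and 22.6% of the others of at least 30 FPKM, and by TPM L1 was lowest for 17. The median level of the members was 93.8, 101 and 116 FPKM in B1, B2 and B3, and 89.4, 115 and 194 FPKM in L1, L2 and L3. L3 was highest in both subunits, with a small subunit median of 199 FPKM and a large subunit median of 218 FPKM, against 109 to 117 FPKM and 102 to 149 FPKM in the other animals. In TPM the L3 medians were 421 and 462, against 253 to 358 and 282 to 335 in the others. The Luxi animals varied more among themselves than the Shandong black cattle did: the median SD of a member between the animals of a breed was 0.53 on the log2 scale in Luxi cattle and 0.18 in Shandong black cattle. Over all genes tested the corresponding medians were 0.31 and 0.19, and over the other genes of at least 30 FPKM they were 0.48 and 0.21.

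The study asked how the muscle of the breeds differs, and no ribosomal protein gene was called different between them. A call needed an adjusted p-value under 0.05 in limma with Benjamini-Hochberg adjustment and a log2 fold change of 1 or more in either direction, computed on log2(FPKM + 1) with positive values for higher levels in Luxi cattle. Among all genes tested, 2.57% were called, and 0 of the 83 members were. At an unadjusted p under 0.05 in limma there were 10 members, 9 with the higher mean in Luxi cattle and 1 with the lower, which is 12.05% of the members against 21.8% of all genes tested (15.0% with the higher mean in Luxi cattle and 6.81% with the lower). The 3 animals of one breed all lay above the 3 of the other for 18 members (21.7%), against 29.1% of all genes tested. In 15 of these Luxi cattle were higher, a share of 18.1% beside 20.0% of all genes, and in 3 they were lower, a share of 3.61% beside 9.13%. A log2 fold change of 1 or more was reached by 11 members (13.3%), against 5.15% of all genes. This count was 7 (8.43%, against 5.10%) when FPKM was recomputed from the coverage of the exons, 6 (7.23%, against 4.72%) when every transcript over the reference exons was counted, readings described further on, and 5 (6.02%, against 3.79%) under median-of-ratios size factors.

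The log2 fold change was above 0 for 57 of 83 members (68.7%) and for 62.5% of all genes tested. The median was 0.29 over the members and 0.13 over all genes, a distance of 0.16. Rescaling the animals by median-of-ratios size factors brought the median of all genes to 0.02 and that of the members to 0.13, a distance of 0.12. The sign of the members' median rested on 1 animal: without L3 it was -0.02, with 40 of 83 members above 0, and without L1 it was 0.55, with 64 of 83 above 0. Of the small subunit, 23 of 31 tested members had the higher mean log2 level in Luxi cattle and the median log2 fold change was 0.30. Of the large subunit, 30 of 42 did, with a median of 0.31, whereas the 7 tested paralogs had a median of -0.13, with 2 above 0.

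RPS29, a small subunit protein with a zinc finger whose gene lies at chr10:42627498-42629350 of ARS-UCD1.2, had the lowest adjusted p of the members. Its level was 83.1, 128 and 115 FPKM in B1, B2 and B3, and 273, 212 and 338 FPKM in L1, L2 and L3, so all Luxi animals lay above all Shandong black cattle. The mean was 109 ± 23.0 FPKM in Shandong black cattle and 274 ± 62.8 FPKM in Luxi cattle (SD, n = 3 each), and the log2 fold change was 1.32 ± 0.32 (SE, limma adjusted p = 0.0769). RPL37, a zinc-binding protein of the large subunit, was at 189, 205 and 220 FPKM in B1, B2 and B3, and at 445, 372 and 651 FPKM in L1, L2 and L3. The breeds again did not overlap, and the log2 fold change was 1.22 ± 0.33 (SE, limma adjusted p = 0.0976).

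RPL23 and RPL35 of the large subunit showed the same kind of separation. RPL23, which can also bind the p53 regulator MDM2, was at 145, 140.4 and 166 FPKM in B1, B2 and B3, and at 249, 265 and 482 FPKM in L1, L2 and L3 (log2 fold change 1.07 ± 0.35 SE, limma adjusted p = 0.136). RPL35 was at 97.1, 109 and 116 FPKM against 148, 209 and 334 FPKM (log2 fold change 1.02 ± 0.36 SE, limma adjusted p = 0.157). RPL38, a large subunit protein known for the translation of Hox mRNAs in embryos, had a log2 fold change of 1.29 ± 0.51 (SE), but its breeds overlapped, with 48.9, 107 and 73.4 FPKM in B1, B2 and B3, and 89.4, 208 and 308 FPKM in L1, L2 and L3. Without L1, the animal with the high mitochondrial share, 4 of 83 members were called, all higher in Luxi cattle and RPL35, RPL38 and RPLP2 among them, beside 6.11% of all genes called in either direction.

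RPL3, the large subunit protein next to the peptidyl transferase centre, had the largest negative log2 fold change. Its level was 72.4, 50.6 and 65.0 FPKM in B1, B2 and B3, and 41.2, 31.8 and 42.8 FPKM in L1, L2 and L3. All Luxi animals lay below all Shandong black cattle, with a mean of 62.7 ± 11.1 FPKM in Shandong black cattle and 38.6 ± 5.96 FPKM in Luxi cattle (SD, n = 3 each) and a log2 fold change of -0.68 ± 0.25 (SE, limma adjusted p = 0.179). RPS26, which lies at the mRNA exit of the small subunit, was at 109, 95.5 and 101 FPKM against 79.3, 66.3 and 89.6 FPKM (log2 fold change -0.38, limma adjusted p = 0.401). With all transcripts on the exons the RPS26 breeds overlapped (log2 fold change -0.25), and by its reference transcripts alone, which held as little as 17.2% of its FPKM in an animal, the log2 fold change was 0.38. The third member with Luxi cattle below without overlap was the paralog RPL7L1. RPS2 had a log2 fold change of -0.47 and RPS13 of -0.36, both with overlapping breeds.

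None of the members with well-known roles beyond the subunit was called in limma. RPS6, the substrate of the S6 kinases, was at 81.8, 131 and 29.9 FPKM in B1, B2 and B3, and at 128, 87.9 and 139 FPKM in L1, L2 and L3 (log2 fold change 0.75 ± 0.53 SE, limma adjusted p = 0.438). With all transcripts on the exons RPS6 was at 129 FPKM in B3, and the log2 fold change was 0.03. RPL5, which with RPL11 and 5S rRNA binds MDM2, was at 199 to 209 FPKM in Shandong black cattle and at 157 to 318 FPKM in Luxi cattle (log2 fold change -0.01 ± 0.35 SE). RPSA, also known as the laminin receptor, had a log2 fold change of 0.03 ± 0.29 (SE) and of 0.39 with all transcripts on the exons, RPS19, the gene most often mutated in Diamond-Blackfan anaemia, one of 0.20 ± 0.37 (SE), and RPS27A, made as a fusion with ubiquitin, one of 0.64 ± 0.34 (SE). RPL13A, which is often used as a reference gene in qPCR, was at 279, 322 and 324 FPKM in B1, B2 and B3, and at 309, 454 and 688 FPKM in L1, L2 and L3 (log2 fold change 0.58 ± 0.38 SE, limma adjusted p = 0.408).

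Of the 3 proteins of the P stalk, RPLP1 separated the breeds and the others did not. RPLP1 was at 588, 600.1 and 737 FPKM in B1, B2 and B3, and at 739, 922 and 1517 FPKM in L1, L2 and L3, with Luxi cattle above in every animal by a narrow margin (log2 fold change 0.66 ± 0.40 SE, limma adjusted p = 0.370). RPLP2, its partner, was at 44.7, 63.0 and 59.5 FPKM against 41.3, 123 and 119 FPKM (log2 fold change 0.61 ± 0.45 SE). RPLP0, the protein that anchors both to the ribosome, was at 146, 163 and 168 FPKM against 79.9, 165 and 225 FPKM (log2 fold change -0.14 ± 0.41 SE).

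Of the 4 members on the X chromosome, RPS4X and RPL10 had negative and RPL36A and RPL39 positive log2 fold changes. RPS4X of the small subunit was at 161, 178 and 155 FPKM in B1, B2 and B3, and at 114, 113 and 169 FPKM in L1, L2 and L3 (log2 fold change -0.34 ± 0.29 SE). RPL10, which takes part in the joining of the subunits, had a log2 fold change of -0.23 ± 0.36 (SE), and RPL39, which lines the exit tunnel, one of 0.25 ± 0.67 (SE), or 0.51 by exons. RPL36A was at 34.8, 17.4 and 43.1 FPKM in B1, B2 and B3, and at 67.3, 47.2 and 86.3 FPKM in L1, L2 and L3, without overlap (log2 fold change 1.10 ± 0.39 SE, limma adjusted p = 0.162). By its exons RPL36A was at 46.5 FPKM in B2, just under the 47.2 FPKM of L2, and the log2 fold change was 0.65. The part of sex in these values was not tested.

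Within the family, the shorter the transcript, the higher the log2 fold change tended to be. Transcript length was that of the reference transcript with the most FPKM. For the 24 tested members under 500 bases the median log2 fold change was 0.60, and 22 of them were above 0. For the 28 members from 500 to below 700 bases it was 0.30, for the 13 from 700 to below 900 bases 0.12, and for the 18 of 900 bases and over -0.16. The members whose breeds did not overlap divided in the same way. Below 500 bases Luxi cattle were above in 9 members and below in 0, whereas from 900 bases they were above in 2, RPL35 and RPS4Y1, and below in 3, RPL3, RPS26 and RPL7L1. Among the other genes, Luxi cattle were above without overlap in 42 and below in 13 of the 181 under 500 bases, and above in 1782 and below in 823 of the 8905 from 900 bases.

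Across the 83 members the correlation of the log2 fold change with log2 length was -0.50 (Pearson), and that with length -0.55 (Spearman), as a description over genes that share the same 6 libraries. Among the other genes tested the Spearman correlation was 0.06 (n = 9698), and among those of at least 30 FPKM it was -0.08 (n = 716). Short genes outside the family were nevertheless shifted as well: the 181 others under 500 bases had a median log2 fold change of 0.36, and the 31 of them with at least 30 FPKM had one of 0.42. From 900 bases, the 581 others of at least 30 FPKM had a median of 0.08. The order of the 4 classes held when any 1 animal was left out, with Spearman correlations between -0.54 and -0.51, and under size factors the class medians were 0.45, 0.14, -0.04 and -0.32. Whether fragment length, RNA quality or the effective length of short transcripts moved with the breed was not tested.

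**Figure D2:**
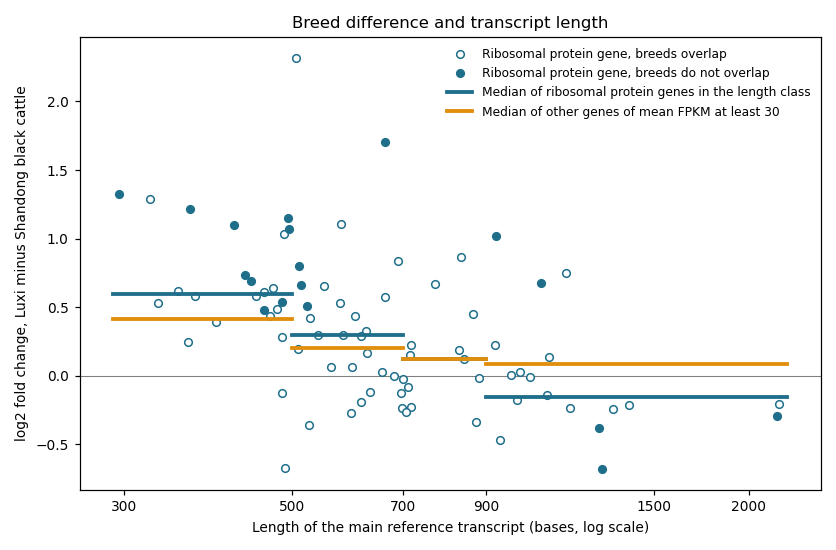
log2 fold change of each tested ribosomal protein gene (y axis, Luxi minus Shandong black cattle, on log2(FPKM + 1)) against the length of its main reference transcript in bases (x axis, log scale). Filled points mark the 18 genes whose breeds do not overlap, and horizontal bars give the median of a length class for ribosomal protein genes (0.60, 0.30, 0.12 and -0.16) and for other genes of at least 30 FPKM (0.42, 0.20, 0.12 and 0.08).

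The level of several members depended on which value of the files was read. The files give the coverage of each transcript, from which its FPKM follows, and beside it the coverage of each exon. For most members both gave the same level, with a median ratio of 1.00. FPKM recomputed from the exons was more than 1.5 times the deposited transcript FPKM in 39 of 497 values of the members (7.85%), spread over 16 of 83 genes (19.3%). For the other genes tested this was so in 1.67% of values and 3.96% of genes, and for those of at least 30 FPKM in 1.80% of values and 5.59% of genes. How the transcript values came to be lower than those of their exons was not tested.

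In some members the gap stood in every animal, and in others in a single one. RPS15A, a small subunit protein, had 11.6 to 22.4 FPKM by its transcripts and 118, 139, 124, 152, 162 and 291 FPKM by its exons in B1, B2, B3, L1, L2 and L3, a ratio of 9.28 to 12.97. RPL9 of the large subunit had a ratio of 1.91 to 3.01 in all 6 animals. RPS15 was at 69.5 FPKM in L2 by its transcripts and at 325 FPKM by its exons, and its log2 fold change went from -0.67 to 0.06. RPL37A was at 16.1 FPKM in B1 by its transcripts and at 87.8 FPKM by its exons, and its log2 fold change went from 1.71 to 0.92.

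In RPS3 the difference between the breeds also depended on the reading. RPS3, a small subunit protein with a further role in DNA repair, was at 41.4, 42.4 and 207 FPKM in B1, B2 and B3, and at 141, 47.1 and 338 FPKM in L1, L2 and L3 by its transcripts. By its exons it was at 184, 212 and 208 FPKM against 141, 192 and 338 FPKM, and the log2 fold change went from 0.87 to 0.06. RPL11 was uneven by both readings, with 8.53, 8.68, 127, 32.8, 16.6 and 47.9 FPKM by transcripts and 8.53, 31.0, 127, 96.3, 29.7 and 135 FPKM by exons in B1, B2, B3, L1, L2 and L3. Counting all transcripts on the exons, RPL11 was at 15.5, 33.1, 45.7, 34.8, 11.4 and 50.7 FPKM, and its log2 fold change over the 3 readings was 0.43, 1.13 and -0.06. Over the family, 26 members (31.3%) varied more than 3-fold between animals by transcripts and 18 (21.7%) by exons, beside 32.5 and 31.3% of all genes tested. The median log2 fold change was 0.23 by exons, and again 0 members were called in limma, beside 2.58% of all genes, with 10 members (12.05%) at an unadjusted p under 0.05, beside 22.4% of all genes.

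**Figure D3:**
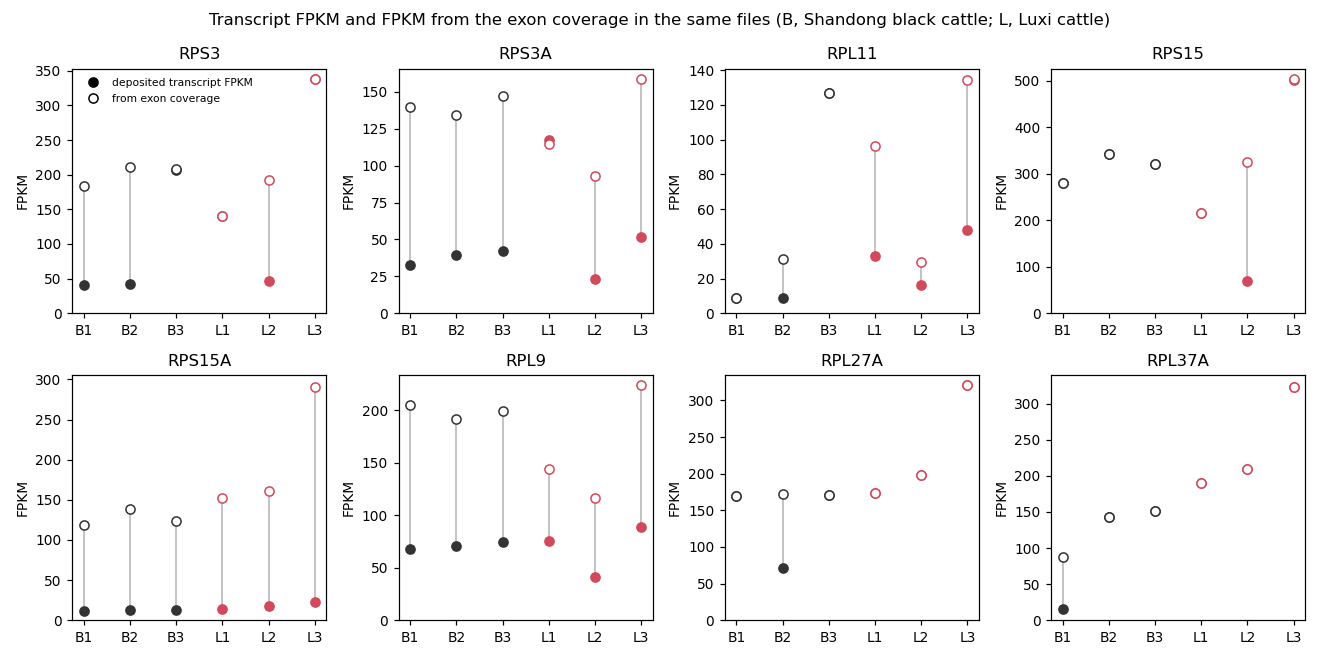
FPKM (y axis) of 8 ribosomal protein genes in each animal (x axis: B, Shandong black cattle; L, Luxi cattle), as deposited per transcript (filled) and recomputed from the exon coverage in the same files (open), joined by a line. The points coincide in most animals of RPS15, RPL27A and RPL37A and part in 1 animal each, whereas in RPS15A and RPL9 they part in all 6.

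RPL32, of the large subunit, had the largest log2 fold change of the family by transcripts, 2.32 ± 1.46 (SE, limma adjusted p = 0.388). Its level was 3.97, 2.63 and 12.1 FPKM in B1, B2 and B3, and 86.4, 145 and 1.296 FPKM in L1, L2 and L3. By the exon coverage of its own transcripts it was at 17.2, 6.40 and 62.4 FPKM against 86.4, 145 and 1.296 FPKM (log2 fold change 0.59). In B1, B2, B3 and L3 part of the coverage of its exons lay in assembled transcripts not assigned to it. Those transcripts ran 3508 to 5190 bases beyond the gene. Counting the exon coverage of every transcript over the reference exons, RPL32 was at 66.6, 90.5 and 87.3 FPKM against 86.4, 145 and 43.8 FPKM, and the log2 fold change was 0.02. By that reading 15 members varied more than 3-fold.

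RPL3L, the paralog of RPL3 found in striated muscle, varied more between animals than between breeds. By its transcripts its level was 2.35, 5.59 and 71.3 FPKM in B1, B2 and B3, and 0.253, 38.5 and 18.4 FPKM in L1, L2 and L3. The gene lies at chr25:1507603-1514414 of ARS-UCD1.2, with RPS2 5114 bases away, and in B2, L1 and L3 assembled transcripts reached up to 4909 bases beyond it. With all transcripts over its exons it was at 2.35, 27.2 and 81.7 FPKM in B1, B2 and B3, and at 8.86, 40.5 and 98.9 FPKM in L1, L2 and L3. By either reading B1 was the lowest and B3 the highest Shandong black animal, and L1 was the lowest Luxi animal. Reference transcripts held as little as 1.17% of the RPL3L FPKM in an animal. By them alone L3 was at 0.215 FPKM, below the 0.253 FPKM of L1. The log2 ratio of RPL3L to RPL3, on FPKM + 1, was -4.45, -2.97 and 0.13 in B1, B2 and B3, and -5.07, 0.27 and -1.18 in L1, L2 and L3. The breeds differed by 0.44 in the mean, within the spread of 2.34 (SD) in Shandong black cattle and 2.76 (SD) in Luxi cattle (exact two-sided permutation test, p = 0.9, where 3 animals against 3 cannot go below 0.1). The sign of this difference changed when B1 or L2 was left out, to -0.58 and -0.70.

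The other paralogs held a smaller or steadier part of the FPKM of their pair. RPL36AL, a copy of RPL36A that lies near RPS29 on chromosome 10, made up 39.1, 48.1 and 26.7% of the pair in B1, B2 and B3, and 25.2, 17.0 and 18.2% in L1, L2 and L3. The RPL36AL level itself was 18.05 ± 3.70 FPKM in Shandong black cattle and 17.2 ± 6.76 FPKM in Luxi cattle (SD, n = 3 each). Its log2 fold change was -0.13, that of RPL36A was 1.10, or 0.65 by exons, and neither gene was called. By all transcripts on the exons the share was 35.3, 22.7 and 23.6% against 22.2, 14.8 and 15.8%, so the breeds still did not overlap. RPL22L1 made up 36.4, 26.4 and 58.4% of the pair with RPL22 in Shandong black cattle and 10.1, 25.8 and 25.1% in Luxi cattle, without overlap by a narrow margin. By all transcripts on the exons these breeds overlapped, with 34.0, 24.1 and 39.9% against 10.1, 26.8 and 25.5%.

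RPS4Y1, annotated here on chromosome 23, made up 4.01, 3.64 and 3.62% of the pair with RPS4X in B1, B2 and B3, and 6.73, 10.7 and 6.31% in L1, L2 and L3. Its own level was 6.72, 6.71 and 5.80 FPKM against 8.20, 13.5 and 11.4 FPKM, without overlap (log2 fold change 0.68 ± 0.22 SE, limma adjusted p = 0.135). RPS27L, a p53 target, was at 14.6, 14.3 and 13.7 FPKM in B1, B2 and B3, and at 15.7, 26.6 and 31.0 FPKM in L1, L2 and L3 (log2 fold change 0.69 ± 0.28 SE, limma adjusted p = 0.202), and its part of the pair with RPS27 was 22.8 to 36.6% against 25.0 to 37.9%, or 46.0 to 61.5% against 48.8 to 61.9% with all transcripts on the exons. RPL7L1 held 7.45% of the pair with RPL7 in the mean of Shandong black cattle and 5.54% in Luxi cattle, and RPL26L1 held 1.16% and 0.774% of the pair with RPL26. RPL10L, whose human counterpart is a testis gene, was listed at 0 in 5 animals and at 0.133 FPKM in L2.

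**Figure D4:**
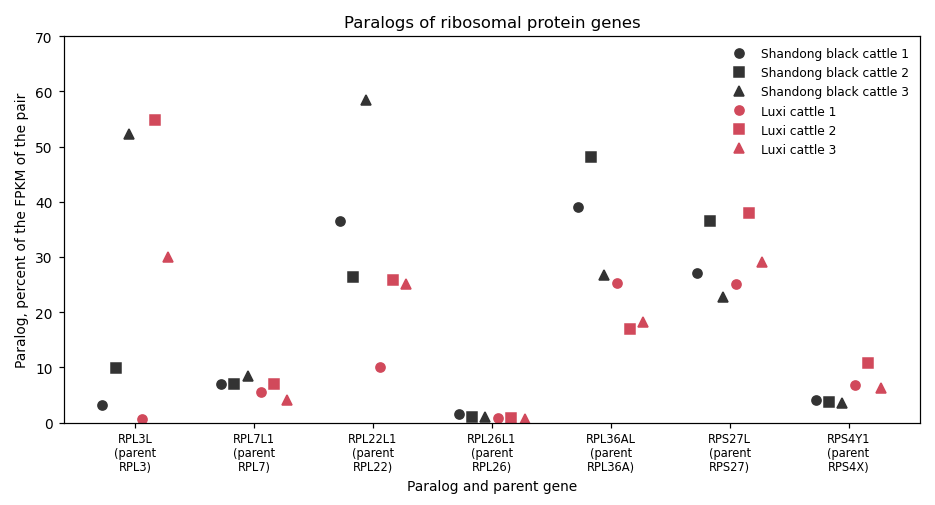
Share of each paralog in the summed FPKM of the paralog and its parent gene, in percent (y axis), for 7 pairs (x axis), with 1 point per animal. The RPL3L points spread from 0.611 to 54.8% over both breeds, the RPS4Y1 points are higher in all Luxi animals and the RPL36AL points are lower in all of them.

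Most lists of other genes of translation had a negative median, below that of all genes. Of 32 tested genes of ribosome biogenesis and RNA polymerase I, 0 were called in limma and 7 had an unadjusted p under 0.05, a share near the 21.8% of all genes. The median was -0.32, and 4 had a log2 fold change above 0, against 62.5% of all genes. Luxi cattle lay below without overlap in 9 and above in 1, beside 9.13 and 20.0% of all genes. POLR1E, a subunit of RNA polymerase I, was at 5.36, 4.98 and 4.35 FPKM in B1, B2 and B3, and at 1.37, 2.48 and 2.73 FPKM in L1, L2 and L3 (log2 fold change -0.91 ± 0.21 SE, limma adjusted p = 0.0713). It was called under size factors and by TPM. RRS1, which works on the large subunit precursor, had a log2 fold change of -0.88 and NOP58, of the box C/D snoRNPs, one of -0.84. Size factors left the median at -0.45, and without L1 it was -0.11 beside 0.16 over all genes.

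Among 36 tested initiation factors, 0 were called higher and 1 lower in Luxi cattle, beside 1.54% and 1.02% of all genes, and the median log2 fold change was -0.28. EIF2S3, the gamma subunit of the factor that brings the initiator tRNA, fell from 39.3, 24.2 and 29.4 FPKM in B1, B2 and B3 to 4.41, 7.86 and 4.68 FPKM in L1, L2 and L3 (log2 fold change -2.27 ± 0.28 SE, limma adjusted p = 0.0181). EIF2S3 is X-linked. XIST was detected mainly in Shandong black cattle, as given above, and the part of sex in the EIF2S3 values was not tested. By exon coverage the means were 30.3 and 17.0 FPKM and the call was lost (log2 fold change -0.78, limma adjusted p = 0.1095). For EIF3H, a subunit of the scaffold factor eIF3, the log2 fold change was 1.76 by transcripts (limma adjusted p = 0.0526) and -0.37 by exons. For EIF4G2, a relative of the scaffold factor eIF4G, it was 1.31 by transcripts (limma adjusted p = 0.117). The exon readings of EIF4G2 disagreed. Exon coverage gave 1.32, with means of 41.7 FPKM in Shandong black cattle and 109 FPKM in Luxi cattle. All transcripts on the exons gave -0.26, with means of 205 and 172 FPKM.

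For 11 elongation and termination factors and for 21 other 5′ TOP mRNAs, lists that share genes, 0 were called in limma, 1 and 3 had an unadjusted p under 0.05, beside 21.8% of all genes, and the medians were -0.29 and -0.26. Of these genes HNRNPA1 was called under size factors, EIF3H by TPM and without L1, and EEF2K without L1. EEF1G, a subunit of the factor that reloads EEF1A, was at 231, 313 and 278 FPKM in B1, B2 and B3, and at 9.51, 366 and 392 FPKM in L1, L2 and L3, so L1 alone lay below the Shandong black cattle (log2 fold change -1.25, limma adjusted p = 0.607). With all transcripts on the exons its means were 272 and 290.1 FPKM. TPT1, a 5′ TOP mRNA, was at 781, 691 and 2222 FPKM in B1, B2 and B3, and at 1090, 2582 and 4733 FPKM in L1, L2 and L3, with L3 highest as in most ribosomal protein genes. EEF1A2, the muscle form of the factor that delivers aminoacyl-tRNA, and EEF2K, the kinase that slows elongation, had log2 fold changes of -0.73 and 1.02 (limma adjusted p = 0.460 and 0.137). Of the ribosomal proteins that the name rule does not take in, FAU and RACK1 had log2 fold changes of -0.26 and -0.38. Of 8 snoRNA host genes, 2 were tested and 0 called, with a median of -0.06.

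Of 16 tested genes of mTORC1 and S6 kinase signalling, 1 was called higher in Luxi cattle and 0 lower, beside 1.54 and 1.02% of all genes, and the median was 0.19. DEPTOR, an inhibitor of mTOR, rose from 1.66, 1.85 and 1.32 FPKM in B1, B2 and B3 to 4.24, 3.66 and 6.94 FPKM in L1, L2 and L3 (log2 fold change 1.15 ± 0.23 SE, limma adjusted p = 0.0491). By exon coverage the call was kept (log2 fold change 1.15, limma adjusted p = 0.0466). With all transcripts on the exons the DEPTOR log2 fold change was 0.89 (limma adjusted p = 0.0443), under the size needed for a call. DEPTOR was not called under size factors or by TPM. For RPS6KA3, a kinase that phosphorylates RPS6, the log2 fold change was 1.33 (limma adjusted p = 0.0733), and for EIF4EBP2, which holds back the cap-binding factor, it was -1.01 (limma adjusted p = 0.139).

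**Figure D5:**
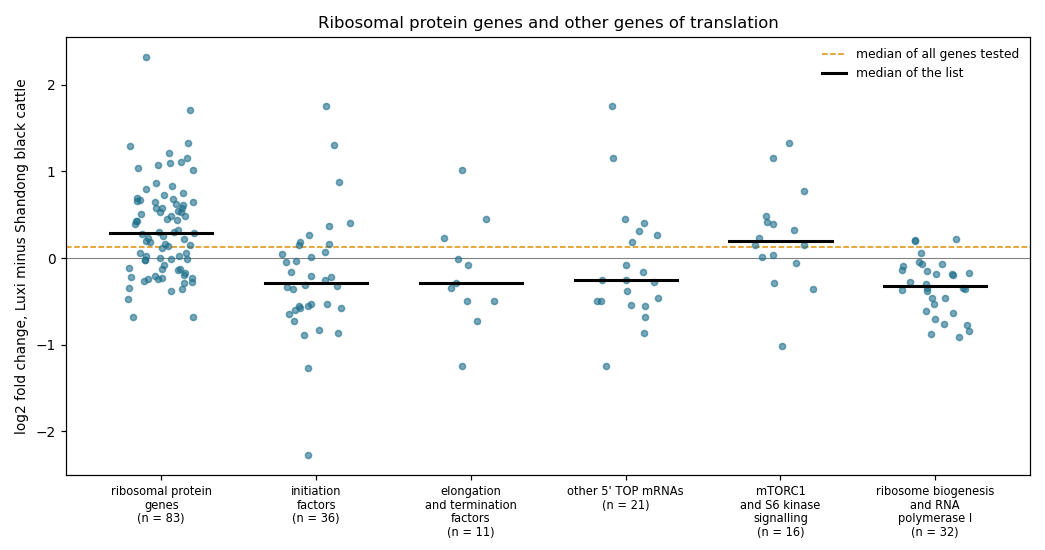
log2 fold change (y axis, Luxi minus Shandong black cattle) of each tested gene in 6 lists (x axis), with a bar at the median of the list and a dashed line at the median of all genes tested, 0.13. The ribosomal protein genes (median 0.29) and mTORC1 signalling (0.19) lie above that line, and the initiation factors (-0.28), elongation factors (-0.29), other 5′ TOP mRNAs (-0.26) and ribosome biogenesis genes (-0.32) lie below it.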

How the data were processed

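Longissimus dorsi RNA-Seq of 6 animals was analysed, 3 per breed, 1 library each. The authors trimmed and aligned the reads to ARS-UCD1.2 and ran StringTie on each library with the NCBI annotation and reads of known strand. The header names StringTie 1.3.3b. They deposited, for each transcript, the coverage (unnormalized), the FPKM (coverage relative to the aligned bases) and the TPM (coverage scaled by 1 factor per library). The file column used here holds these values as text. Counts were not used here, so depth is given as aligned bases and no counting error is stated.

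Gene FPKM was the sum over reference transcripts and over those assembled transcripts that lay on the exons of the gene with 50% or more of their bases. A transcript without a value counted as 0. Assembled transcripts left out held 21.6 to 29.8% of FPKM. Genes with a mean of at least 1 FPKM in at least 1 breed were fitted with limma 3.58.1 (R 4.3.3, lmFit and eBayes with trend) on log2(FPKM + 1), without covariates, and adjusted over all of them after Benjamini-Hochberg. The study's Cuffdiff test needs alignments and was not used here. The procedure was tested on data simulated with the means and spreads of the genes tested, with 200 genes raised in Luxi cattle. At a log2 change of 1.5 it called 62% of them, with 1 unchanged gene. At a log2 change of 3 it called 92%, with 11 unchanged genes. A change of 1.5 or less can thus be missed. The RPL3L to RPL3 ratio was compared by an exact permutation test.

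Exon FPKM divided the mean exon coverage of the same transcripts by the aligned bases. The second exon reading took every transcript of the strand over the reference exons and their summed length. Both were chosen after the data were seen, as was leaving the mitochondrial genes out of the share. The members and lists were chosen with earlier results of these data known. Genes named are the paralogs and their parents, the P stalk, members of well-known role, the 5 highest and 5 lowest, the 5 with the largest difference each way, and up to 3 per list, apart from a few genes not reported here. RPL23, RPL35, RPS3A, RPL9, RPL27A and RPL39 were otherwise named after their values were seen, for their difference, their exon coverage or their chromosome, as were EIF2S3 and EIF3H by exons, and HNRNPA1 for a call under an alternative. All 86 member symbols were found in the RefSeq gene table of ARS-UCD2.0. Alternatives were another pseudocount, 2 other filters, TPM, 3 scalings, no trend, a replicate block, reference transcripts only, and leaving out each animal.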

Additional observations from a re-analysis of the deposited data

How the results depend on the processing

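The count of ribosomal protein genes called in limma, 0 with all animals, was also 0 under another pseudocount, no filter, a mean of at least 5 FPKM, TPM, size factors, quantile normalization, reference transcripts, the adjusted p alone and both exon readings, where 9 to 12 members had an unadjusted p under 0.05. At an unadjusted p under 0.05, 21.8% of all genes passed in the main fit. Of all genes, 0.350% were called with no filter and 1.82 to 3.40% under the others, the adjusted p alone aside. The count of members was 2 when the animals were centred on the members (RPL32 and RPL37A, beside 3.29% of all genes). It was 2 without the trend (RPL37 and RPS29, beside 2.56%). It was 0 to 4 when 1 animal was left out, with 4 without L1, beside 6.11% of all genes, and 1 without L3 (RPL32), beside 0.887%. Without B1 and without B3 only 0.102 and 0.0306% of all genes were called, so a count of 0 there says little about the members. The median log2 fold change lay between -0.02 and 0.55 when 1 animal was left out. It lay between 0.13 and 0.33 under the other alternatives, centring on the members aside. Centring gives the members the same median in every animal, so the 0.01 found there was fixed by the scaling. The log2 ratio of RPL3L to RPL3 lay between -0.70 and 1.97 when 1 animal was left out, and between 0.03 and 1.48 otherwise. The share difference lay between 0.35 and 1.44 percentage points when 1 animal was left out, and was 1.24 with the mitochondrial genes left out of the total. Of 665 pairs of a named member and an alternative, 34 changed sign without a call and 7 were newly called. The causes were not tested.

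The replicate numbers are shared by the breeds, but nothing says that same-numbered animals belong together. Deviations of same-numbered animals correlated at 0.08, 0.09 and 0.07, so each animal correlated best with its own number, yet all lay under the 0.1 asked of a pairing. With the replicate block, 0 members were called (12 at an unadjusted p under 0.05), 135 of all genes were called against 251 without it, and the RPL3L to RPL3 difference was 0.44 (exact sign-flip test, p = 1.0). Nothing says that the animals of a breed were unrelated. There are 3 per breed, and what depth limits could not be read from FPKM.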
